A study of Mus musculus with 24 samples.

Results

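Slc10a2, Fabp6, Slc51a, Slc51b, Fgf15, Nr1h4 and Nr0b2 carry bile acids through the absorptive cells of the ileum or sense them there, and these 7 genes, chosen by symbol from the 54146 genes of the tables, were followed in organoids from the mouse small intestine. Reads were counted on all 7. The experiment on genotypes compared organoids of 4 kinds, namely WT, Cdk8-/-, Cdk19-/- and Cdk8-/-/Cdk19-/- (the double knockout), all kept for 7 days with 600 nM 4-hydroxytamoxifen, the drug that switches on CreERT2. By the study's methods, the organoids came from Cdk8lox/lox mice with or without Villin-CreERT2, a recombinase driven by the promoter of an epithelial gene, which removes exon 2 of Cdk8. Cdk19 was mutated with a lentiviral Cas9 vector whose guide targets exon 1, and single organoids were then selected with puromycin and expanded as clones, so a Cdk19 mutant line may descend from 1 organoid. The sources used here do not say whether the WT and Cdk8-/- organoids received a control vector. The experiment on inhibition compared organoids given Senexin B, an inhibitor of CDK8 and CDK19, with organoids given DMSO, its solvent, for 16 h or 24 h. The study describes these organoids as WT and gives the dose as 10 µM. Each of the 8 groups had 3 libraries, which the methods call biological triplicates. Nothing says whether these were separate animals, so the p-values measure the spread between these libraries. The age of the mice is not given in the sources used here.

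Conjugated bile acids leave the ileal lumen through Slc10a2 (the apical sodium-dependent bile acid transporter), cross the cell bound to Fabp6 (the ileal bile acid binding protein) and leave on the blood side through Slc51a and Slc51b, the α and β subunits of the heteromeric organic solute transporter. Inside the cell they bind Nr1h4 (the farnesoid X receptor, FXR), which pairs with the retinoid X receptor on inverted repeats of the nuclear receptor core site and is known to induce Fgf15, Nr0b2, Fabp6 and both Slc51 genes. Fgf15 is the hormone that tells the liver to make less bile acid, and Nr0b2 (the small heterodimer partner, SHP) is a repressor without a DNA-binding domain. CDK8 and CDK19 are paralogous kinases of the Mediator complex, which links transcription factors to RNA polymerase II.

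In the GRCm38 build, Slc10a2 (ENSMUSG00000023073) lies on the minus strand at chr8:5083219-5105351, Fabp6 (ENSMUSG00000020405) on the minus strand at chr11:43596049-43601540, Slc51a (ENSMUSG00000035699) on the minus strand at chr16:32474504-32487879 and Slc51b (ENSMUSG00000053862) on the minus strand at chr9:65412714-65422955. Fgf15 (ENSMUSG00000031073) lies on the plus strand at chr7:144896531-144900953, Nr1h4 (ENSMUSG00000047638) on the minus strand at chr10:89454234-89533585 and Nr0b2 (ENSMUSG00000037583) on the plus strand at chr4:133553376-133556536. All are protein-coding. RefSeq promoters of the same build were matched by symbol for 6 of the 7, all but Fgf15. The bases before the start of 4 genes are shown: of Slc10a2, Slc51a and Slc51b because these 3 genes rose in the double knockout, and of Fabp6 because it belongs to the same route and was almost without reads. Capitals mark matches to the motifs searched, and each run is written 5′ to 3′ on the strand of the gene. Bases that GENCODE counts as exon were left out, which shortens Slc10a2 and Slc51b.
Slc10a2 (chr8:5105352-5105537, minus strand): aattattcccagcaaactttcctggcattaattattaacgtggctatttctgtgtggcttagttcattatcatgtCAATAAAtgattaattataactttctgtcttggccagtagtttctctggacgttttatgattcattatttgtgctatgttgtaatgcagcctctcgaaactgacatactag
Slc51a (chr16:32487880-32488129, minus strand): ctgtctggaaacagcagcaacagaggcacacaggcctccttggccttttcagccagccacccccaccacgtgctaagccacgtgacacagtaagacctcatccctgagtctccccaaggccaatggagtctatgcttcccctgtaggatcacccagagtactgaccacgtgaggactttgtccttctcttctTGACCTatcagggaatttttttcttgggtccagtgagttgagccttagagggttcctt
Slc51b (chr9:65422956-65423023, minus strand): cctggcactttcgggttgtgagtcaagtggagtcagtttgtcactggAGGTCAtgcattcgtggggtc
Fabp6 (chr11:43601563-43601812, minus strand): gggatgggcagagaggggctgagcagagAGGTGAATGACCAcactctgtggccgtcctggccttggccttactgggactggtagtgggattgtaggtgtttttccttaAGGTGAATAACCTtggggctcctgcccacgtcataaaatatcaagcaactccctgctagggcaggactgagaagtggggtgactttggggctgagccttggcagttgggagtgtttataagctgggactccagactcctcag

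Motifs were searched on both strands in the 250 bases before each RefSeq start. Fabp6 held 2 matches to AGGTCANTGACCT, the inverted repeat that FXR is known to bind, with up to 2 mismatches allowed, and 0.959% of 32851 RefSeq promoters held such a match. Neither Slc51a nor Slc51b had one in this window. Each had 1 nuclear receptor core site, AGGTCA or its complement, which is part of the longer repeats and stood in 14.0% of promoters. Slc10a2 held 3 matches to TTTATNG, the CDX motif (9.81% of promoters), of which 2 lie in bases counted as exon. Nr1h4 held a core site, an overlapping match to a direct repeat of it (3.24% of promoters) and a match to AGATAA, the GATA motif (9.99% of promoters), and Nr0b2 held no match. The Nr1h4 window (chr10:89506659-89506908) precedes a RefSeq start that lies inside the gene as placed above, so it is not upstream of that gene's end. A match is a description of these letters and not a site.

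Between 14636861 and 15473180 reads per genotype library and between 27075937 and 28405118 per Senexin B or DMSO library were counted on genes. Of the reads counted on either strand, 50.3 to 50.4% lay opposite the gene in the genotype libraries and 9.46 to 12.1% in the others, so the genotype libraries hold no strand information. The labels of the genotype libraries name intestinal organoids and also 4T1, which is a mouse mammary tumour line. All 6 intestinal epithelium genes of the list written for this check (Vil1, Cdx1, Cdx2, Epcam, Cdh17, Lgals4) had at least 1261 reads in every genotype library. Of the 7 mammary genes, Krt14, Krt5, Trp63, Acta2, Csn3 and Elf5 had at most 24 reads in any, and Prlr, which is not limited to mammary cells, had 497 to 1636. The 3 tested mammary genes rose in double knockout, Prlr by 0.71 on the log2 scale (edgeR adjusted p = 0.0443), and the summed list was 45.2 to 56.4 counts per 1000000 counted reads (CPM) in WT and 69.9 to 113 in double knockout; the part of this list in the results was not tested. In a fit without the libraries of doubtful Cdk19 described next, 1 of 3 tested mammary genes rose, Prlr (0.81, edgeR adjusted p = 0.0339). Summed markers of mesenchyme stayed at or below 3.05 CPM and those of immune cells at or below 15.6 CPM in all 24 libraries.

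The normalised read count of Cdk19 was 711 to 749 in WT. It was 420 and 422 in Cdk19-/- replicates 2 and 3 but 729 in the library labelled Cdk19-/- replicate 1, and 403 and 355 in double knockout replicates 1 and 2 but 773 in the library labelled double knockout replicate 3. These counts run over all exons, so a mutation in exon 1 need not lower them, but both libraries go against the other 2 of their groups, so the calls of the members and of the marker lists that include these groups are also given without both libraries. Whether the label of either library is crossed with that of another was not tested, and a crossed label would change what the Cdk19-/- and double knockout values mean. The study reports a Cdk19 deletion by sequencing, no CDK19 protein by Western blotting and loss of Cdk19 mRNA by qPCR in its organoids. The sources used here do not link these checks to single libraries. Cdk8 was 634 to 857 in Cdk8-/- and 534 to 646 in WT. The counts do not show exon 2 by itself and so do not check its removal. Cdk8-/- replicate 3 stood apart from the other 2 of its group for Slc10a2 and Slc51b, and Cdk8-/- replicate 1 for Fgf15.

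The 7 genes were expressed at very different levels. Per kilobase of exon, Slc51a (18.8 ± 1.25 CPM per kb, SD, n = 3) and Nr1h4 (18.7 ± 2.14) were the most abundant in WT, and their levels did not differ beyond their spread. Nr0b2 (3.99 ± 1.21) and Slc51b (3.96 ± 1.04) followed, again within their spread of each other, then Fgf15 (0.733 ± 0.34) and Slc10a2 (0.517 ± 0.0318), whose libraries overlapped, and Fabp6 came last at 0.0468 ± 0.0811. In DMSO at 16 h the order was Nr1h4 (14.4 ± 1.46), Slc51a (5.81 ± 1.87), Nr0b2 (4.35 ± 0.184), Slc51b (2.17 ± 0.0995), Fgf15 (0.328 ± 0.148), Fabp6 (0.125 ± 0.217) and Slc10a2 (0.0928 ± 0.02), where the libraries of Slc51a and Nr0b2 overlapped and those of Fabp6 overlapped both of its neighbours. The libraries of the experiments were made by different protocols, with poly(A) selection for the genotypes and ribosomal RNA depletion for Senexin B, so levels were not compared between them. In double knockout the order became Slc51a (33.3 ± 5.21), Nr1h4 (24.1 ± 1.45), Slc51b (15.0 ± 2.96), Nr0b2 (4.62 ± 2.08), Slc10a2 (2.46 ± 0.53), Fgf15 (0.379 ± 0.263) and Fabp6 (0.233 ± 0.211), with Slc51b above Nr0b2 and Slc10a2 above Fgf15 in every library. The libraries of Nr0b2 and Slc10a2 overlapped there, as did those of Fgf15 and Fabp6.

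Fabp6, which in the ileum of the mouse is an abundant cytosolic protein, was hardly detected. The sources used here do not name the segment of the small intestine that the organoids came from. It had 1, 0 and 0 reads in WT, 0 in all 3 Cdk8-/- libraries, 0, 1 and 0 in Cdk19-/-, and 2, 3 and 0 in double knockout. With DMSO it had 0, 0 and 5 reads at 16 h and 4, 3 and 2 at 24 h, and with Senexin B 4, 6 and 3 at 16 h and 8, 4 and 3 at 24 h. It was at 0 in 8 of 12 genotype libraries and in 2 of 12 others, where a count of 0 allows up to 3 reads, or 0.193 to 0.210 CPM in a genotype library and 0.103 to 0.112 CPM in the others. Such limits cover counting error only. In the genotype libraries, which hold no strand information, they also cover only the strand column used. Summed over these 12 libraries, 9 further Fabp6 reads lay on the other strand, against 7 counted. Fabp6 did not pass the filter on low counts in either experiment, so the 7 genes gave 6 tested ones. In the fit with no filter it was called in 0 of 10 contrasts by edgeR, and 1 had an unadjusted p under 0.05, double knockout against Cdk8-/- (edgeR adjusted p = 0.484). There the log2 fold change with Senexin B was 1.35 at 16 h (SE 0.81, edgeR adjusted p = 0.505) and 0.79 at 24 h (SE 0.698, edgeR adjusted p = 0.584).

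Loss of both kinases came with more mRNA of the apical importer and of both basolateral exporter subunits. In double knockout against WT, Slc10a2 rose 4.75-fold, Slc51b 3.77-fold and Slc51a 1.77-fold, and no tested member fell by the test. The test was the quasi-likelihood test of edgeR over all genes of the 12 libraries, and a gene was called at a p-value below 0.05 after Benjamini-Hochberg adjustment. It called 3 of the 6 tested members, all higher, against 17.3% of the 15602 genes tested (9.41% higher). The median log2 fold change was 0.60 over the 6 members and -0.01 over all genes tested.

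Slc10a2 had 34.2, 31.8 and 30.3 normalised reads in WT and 125, 144 and 189 in double knockout. The lowest double knockout library held more than any WT library by a wide margin, and the means were 32.1 ± 1.97 and 153 ± 32.9 (SD, n = 3). The log2 fold change was 2.25 (SE 0.379, edgeR adjusted p = 0.0026) and 2.06 without both libraries at the WT level of Cdk19 (edgeR adjusted p = 0.00818). Slc51b had 48.3, 48.3 and 29.2 in WT and 189.7, 127 and 159 in double knockout, again without overlap. Its log2 fold change was 1.92 (SE 0.336, edgeR adjusted p = 0.00317) and 1.91 without these libraries (edgeR adjusted p = 0.00516). Slc51a, the partner subunit, had 861, 967 and 867 in WT and 1875, 1490.4 and 1409.6 in double knockout, which did not overlap. It rose by 0.83 on the log2 scale (SE 0.163, edgeR adjusted p = 0.00585) and by 0.91 without these libraries (edgeR adjusted p = 0.00334). The smaller fold of Slc51a than of Slc51b is a description, as the difference between the genes was not tested.

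**Figure D1:**
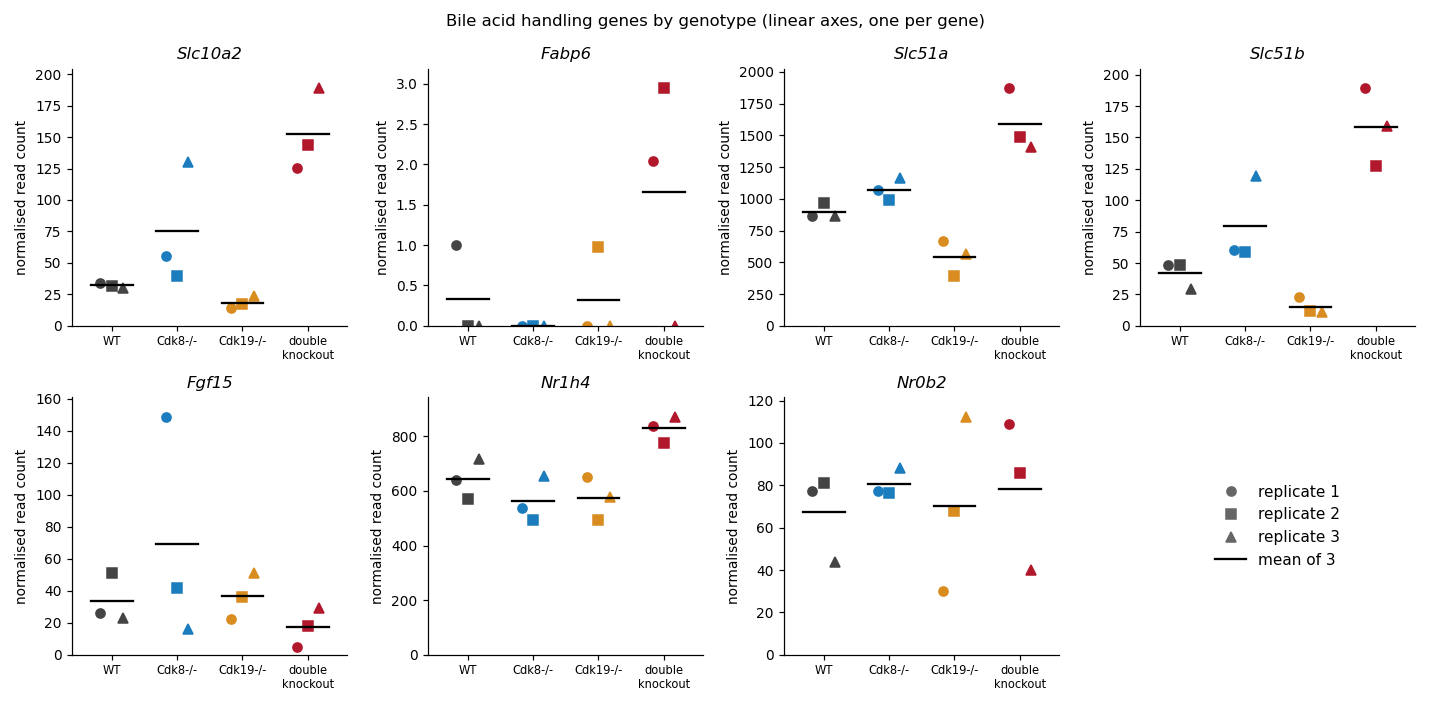
Normalised read counts of the 7 genes in each genotype library, one panel per gene with its own linear vertical axis that starts at 0; circles, squares and triangles are replicates 1, 2 and 3, and the bar is the mean of 3 libraries. The double knockout libraries of Slc10a2 (125 to 189), Slc51a and Slc51b lie above all WT libraries, those of Cdk19-/- lie below them, and Fabp6 is at or near 0 throughout.

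Slc51a and Slc51b overlap genes on the other strand, and the genotype libraries cannot split the shared reads. Of the exon bases of Slc51a, 17.7% (567 bases) are also exon of Pcyt1a, a gene of phosphatidylcholine synthesis, whose count rose by 0.58 in double knockout (SE 0.0931, edgeR adjusted p = 0.00206). For Slc51b the share is 12.8% (91 bases), with Rasl12, a small GTPase gene, which had 9 to 71 reads per genotype library and 1 to 5 per stranded library. The count of Rasl12 rose by 2.15 in double knockout (SE 0.328, edgeR adjusted p = 0.00159), and in Cdk8-/- by 1.58 (SE 0.332, edgeR adjusted p = 0.02). These counts of Pcyt1a and Rasl12 also hold shared reads that may come from the Slc51 genes. When reads were counted without strand and those in shared bases dropped, Slc51a rose by 0.87 (edgeR adjusted p = 0.012) and Slc51b by 2.33 (edgeR adjusted p = 0.00218) in double knockout. Slc10a2, which overlaps no other exon, gave 2.22 (edgeR adjusted p = 0.0027). Fgf15 shares 24.9% of its exon bases (761 bases) with Gm26793, an antisense gene, and gave -1.28 (edgeR adjusted p = 0.241) when counted in this way.

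Nr1h4, Fgf15 and Nr0b2 did not pass. The receptor Nr1h4 had 641, 571 and 718 normalised reads in WT and 839, 775 and 873 in double knockout. The groups did not overlap, yet the log2 fold change of 0.37 (SE 0.131) missed the threshold at an edgeR adjusted p of 0.0755. The groups of 4 of the 6 members did not overlap, against 38.8% of all genes tested. Of the genes FXR is known to induce, Fgf15 had 26.1, 51.3 and 23.0 in WT and 5.10, 17.7 and 29.1 in double knockout. These ranges overlapped, and the log2 fold change was -0.94 with a 95% interval from -2.59 to 0.71 (edgeR adjusted p = 0.424). Nr0b2 had 77.4, 81.1 and 43.8 in WT and 109, 85.6 and 39.8 in double knockout, with a log2 fold change of 0.21 and an interval from -0.73 to 1.15 (edgeR adjusted p = 0.777). Without both libraries at the WT level of Cdk19, Nr1h4 was 0.33, Fgf15 -1.54 and Nr0b2 0.53, with edgeR adjusted p-values of 0.125, 0.265 and 0.23.

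Neither single knockout had a member called by edgeR. In Cdk8-/- against WT, where 5.15% of genes were called, Slc10a2 had 55.4, 39.8 and 131 normalised reads, all above WT (29.6% of genes had groups that did not overlap), and a log2 fold change of 1.23 (SE 0.382, edgeR adjusted p = 0.0886). DESeq2 called it (1.24, adjusted p = 0.0346), as did edgeR with no filter on low counts (1.21, edgeR adjusted p = 0.0132). Replicate 3 set much of that value, which was 0.55 without it (edgeR adjusted p = 0.296) and 1.53 without replicate 2 (edgeR adjusted p = 0.0313). Slc51b had 60.4, 59.1 and 119 there, a log2 fold change of 0.92 (SE 0.339, edgeR adjusted p = 0.139), and 0.49 without replicate 3. Slc51a (1066, 990.1 and 1163) gave 0.26 and Nr1h4 (538, 492 and 657) gave -0.19, with edgeR adjusted p-values of 0.398 and 0.435. Fgf15 had 149, 41.8 and 16.3, and its log2 fold change of 1.04 turned to -0.21 without replicate 1. Nr0b2 (77.5, 76.5 and 88.3) gave 0.26 (edgeR adjusted p = 0.782).

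In Cdk19-/- the same 3 transport genes lay below WT in every library. Slc10a2 had 14.1, 17.5 and 23.7 normalised reads and a log2 fold change of -0.80 (SE 0.424, edgeR adjusted p = 0.544). Slc51a had 665, 396 and 562 and gave -0.73 (SE 0.165, edgeR adjusted p = 0.147), and Slc51b had 23.2, 11.7 and 10.9 and gave -1.46 (SE 0.388, edgeR adjusted p = 0.183). This comparison called 0% of genes with edgeR (0 of 15602, with 1691 at an unadjusted p under 0.05) and 309 genes with DESeq2. The groups did not overlap for 3 of 6 members, against 20% of all genes. DESeq2 called Slc51a (-0.72, adjusted p = 0.00773) and Slc51b (-1.45, adjusted p = 0.0286). So did edgeR without the library labelled Cdk19-/- replicate 1, where Slc51a was -0.90 (edgeR adjusted p = 0.0145) and Slc51b -1.87 (edgeR adjusted p = 0.0408) and 521 genes were called. Without both libraries at the WT level of Cdk19, Slc10a2 was -0.63 (edgeR adjusted p = 0.572) and no member beyond the Slc51 genes was called. Nr1h4 (651, 493 and 578), Fgf15 (22.2, 36.0 and 51.3) and Nr0b2 (30.2, 68.0 and 113) overlapped WT, with log2 fold changes of -0.17, 0.12 and 0.06.

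Set directly against each other, double knockout and Cdk19-/- differed in 4 members, all higher in double knockout, against 25.3% of genes called (14.4% higher) and 38.9% whose groups did not overlap. The log2 fold changes were 3.37 for Slc51b (SE 0.374, edgeR adjusted p = 0.000164), 3.04 for Slc10a2 (SE 0.402, edgeR adjusted p = 0.000384), 1.56 for Slc51a (SE 0.167, edgeR adjusted p = 0.000145) and 0.53 for Nr1h4 (SE 0.132, edgeR adjusted p = 0.012). Without both libraries at the WT level of Cdk19 they were 3.78, 2.69, 1.80 and 0.58, with edgeR adjusted p-values of 0.000395, 0.00317, 0.000108 and 0.0188. The call of Nr1h4 was lost without Cdk19-/- replicate 2 (0.42, edgeR adjusted p = 0.0645). Against Cdk8-/-, double knockout had no member called by edgeR, which called 0.0256% of genes (4 of 15602). The log2 differences were 1.02 for Slc10a2 (edgeR adjusted p = 0.212), 0.57 for Slc51a (0.164), 0.99 for Slc51b (0.195), 0.56 for Nr1h4 (0.141) and -1.98 for Fgf15 (0.236), each with an unadjusted p under 0.05, as had 15.5% of all genes tested. DESeq2 called 407 genes, among them Slc51a (0.58, adjusted p = 0.038) and Nr1h4 (0.57, adjusted p = 0.0131). With no filter on low counts, edgeR called these and Fgf15 (-1.98, edgeR adjusted p = 0.0277). Without Cdk8-/- replicate 3, Slc10a2 (1.69, edgeR adjusted p = 0.0121), Slc51b (1.42, 0.0309) and Nr1h4 (0.70, 0.0203) were called, and 839 genes in all. No member was called without both libraries at the WT level of Cdk19, with log2 differences of 0.85 for Slc10a2 (edgeR adjusted p = 0.328), 0.66 for Slc51a (0.0993) and 1.00 for Slc51b (0.201).

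The double knockout was also compared with the sum of both single knockouts on the log2 scale. The departure was 2.45 for Slc51b (SE 0.503, 95% interval 1.36 to 3.54, edgeR adjusted p = 0.0727), 1.81 for Slc10a2 (SE 0.552, interval 0.61 to 3.01, 0.169) and 1.30 for Slc51a (SE 0.231, interval 0.80 to 1.81, 0.0598). None passed with edgeR, and 0.0256% of genes did. DESeq2 called 495 genes, among them Slc51a (1.30, adjusted p = 0.000109), Slc51b (2.46, adjusted p = 0.000887) and Nr1h4 (0.72, adjusted p = 0.0255), and edgeR with no filter called these and Slc10a2 (1.81, edgeR adjusted p = 0.018). Without both libraries at the WT level of Cdk19 the departures of Slc51a (1.56, edgeR adjusted p = 0.00605) and Slc51b (2.88, edgeR adjusted p = 0.0206) passed. That of Slc51a also passed without the library labelled Cdk19-/- replicate 1 (1.47, edgeR adjusted p = 0.0082), double knockout replicate 2 (1.35, 0.04999) or the library labelled double knockout replicate 3 (1.39, 0.0432), and without Cdk19-/- replicate 1 so did those of Slc51b (2.87, 0.0199) and Nr1h4 (0.82, 0.0414). Without Cdk8-/- replicate 3, those of Slc10a2 (2.48, edgeR adjusted p = 0.014), Slc51a (1.37, 0.0308), Slc51b (2.87, 0.0169) and Nr1h4 (0.85, 0.0345) did. For Nr1h4 the value over all libraries was 0.72 (edgeR adjusted p = 0.12).

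**Figure D2:**
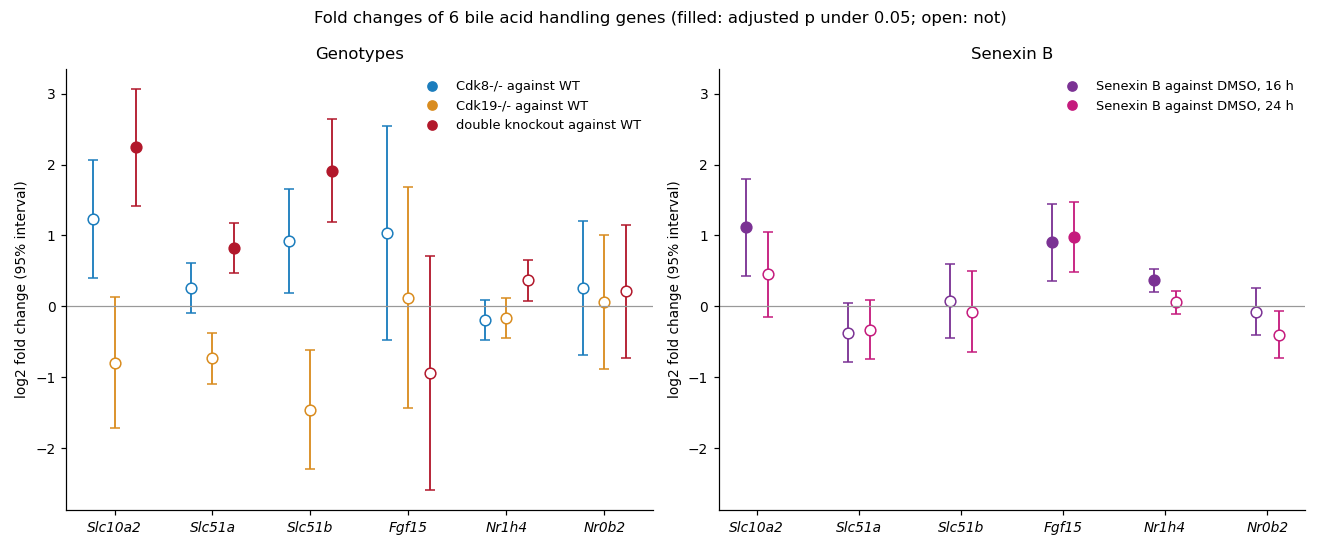
Log2 fold changes of the 6 tested genes with 95% intervals, for each genotype against WT (left) and for Senexin B against DMSO at each time (right); filled points had an edgeR adjusted p under 0.05. Slc10a2 (2.25), Slc51a (0.83) and Slc51b (1.92) are the filled points of the double knockout, the points of Cdk19-/- for these genes lie below 0, and Fgf15 is filled at both times of Senexin B.

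Markers of absorptive cells in general moved in the same direction as the transport genes. In double knockout against WT, 7 of 12 tested distal enterocyte genes rose (median log2 fold change 1.40), among them Naaladl1 (2.82, edgeR adjusted p = 0.00486), an ileal peptidase, Enpp3 (2.05, edgeR adjusted p = 0.00306), Slc13a1 (1.84, edgeR adjusted p = 0.0174), a sulphate transporter, and Ceacam20 (1.80, edgeR adjusted p = 0.00123). Of 14 proximal enterocyte genes, 6 rose (median 0.58), with Lct, the lactase, at 1.61 (edgeR adjusted p = 0.0452) and Apoa4, an apolipoprotein, at 1.59 (edgeR adjusted p = 0.00245). Of 9 enterocyte genes without a regional bias, 7 rose (median 0.93), with Krt20 at 1.88 (edgeR adjusted p = 0.0026) and Anpep at 1.49 (edgeR adjusted p = 0.00144). Of 5 stem and crypt genes, 4 fell, with Lgr5 at -1.23 (edgeR adjusted p = 0.00055) and Ascl2 at -1.04 (edgeR adjusted p = 0.00144). All medians stand beside -0.01 for all genes, and the counts beside 17.3% of genes called (9.41% higher). In the fit without both libraries at the WT level of Cdk19, 7 of 13 distal, 10 of 14 proximal and 8 of 9 enterocyte genes without a regional bias rose, and 4 of 5 stem and crypt genes fell.

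The summed level of the distal enterocyte list was 1172 to 1275 CPM in WT, 878 to 1380.0 in Cdk8-/-, 622 to 918 in Cdk19-/- and 1372 to 1822 in double knockout. The proximal enterocyte list ran from 5108 to 6001, 7288 to 7779, 3121 to 5121 and 8129 to 12702 in the same order. The enterocyte list without a regional bias ran from 6485 to 6976, 7538 to 8324, 5384 to 6208 and 10337 to 13074. The stem and crypt list ran from 2488 to 2834 in WT and 2216 to 3544 in Cdk8-/-, and was 3309 to 5220.4 in Cdk19-/- and 1781 to 1978 in double knockout. In bulk RNA, more cells of a type and more RNA per cell cannot be told apart, and the part of the marker lists in the rise of the transport genes was not tested. None of the 12 tested distal genes, 14 proximal genes or 9 enterocyte genes was called in Cdk19-/- against WT, where edgeR called 0 of 15602 genes. Their median log2 fold changes were -0.76, -0.48 and -0.55. Once both libraries at the WT level of Cdk19 were left out, 3 of 13 distal genes, 6 of 14 proximal genes and 3 of 9 enterocyte genes fell in Cdk19-/-, and 3 of 5 stem and crypt genes rose.

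Markers of secretory cells took no common direction in double knockout, where 17.3% of all genes were called (5.15% in Cdk8-/-). All 4 Paneth genes rose in double knockout (median 1.38), with Lyz1, a lysozyme, at 2.13 (edgeR adjusted p = 0.000235), and all 4 in Cdk8-/- (median 1.56). Of 6 goblet genes, 1 rose in double knockout, Muc2, the secreted mucin, at 1.36 (edgeR adjusted p = 0.00055), and 3 in Cdk8-/-. Of 4 tuft genes, 2 fell in double knockout, Pou2f3 at -1.66 (edgeR adjusted p = 0.005) and Dclk1 at -1.16 (edgeR adjusted p = 0.0371), and 0 of 5 enteroendocrine genes passed. None of these lists had a called gene in Cdk19-/-, where edgeR called 0 of 15602 genes. With these libraries left out, namely Cdk19-/- replicate 1 and double knockout replicate 3, 3 Paneth and 2 goblet genes rose and 3 tuft genes fell in double knockout, and 1 goblet and 1 enteroendocrine gene fell in Cdk19-/-.

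The lists for colonocytes and hepatocytes also had called genes. Of 3 tested colonocyte genes, 1 rose in double knockout, and the summed list was 15.2 to 19.3 CPM in WT and 21.5 to 30.9 in double knockout. Of 3 tested hepatocyte genes, Apob, an apolipoprotein that enterocytes also make, rose in double knockout (1.06, edgeR adjusted p = 0.00366), and Ttr, a carrier of thyroid hormone, fell (-1.12, edgeR adjusted p = 0.00291). Ttr also fell in Cdk8-/- (-1.14, edgeR adjusted p = 0.00749) and with Senexin B at 16 h (-0.59, edgeR adjusted p = 0.00168) and 24 h (-0.79, edgeR adjusted p = 8.77e-05). The defining hepatocyte genes Alb, Fgb and Serpina1a had at most 39, 2 and 2 reads in any library. The fit without Cdk19-/- replicate 1 and double knockout replicate 3 also called 1 colonocyte gene higher and Apob and Ttr in the same directions in double knockout (0.99 and -0.94, edgeR adjusted p = 0.00688 and 0.00268).

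**Figure D3:**
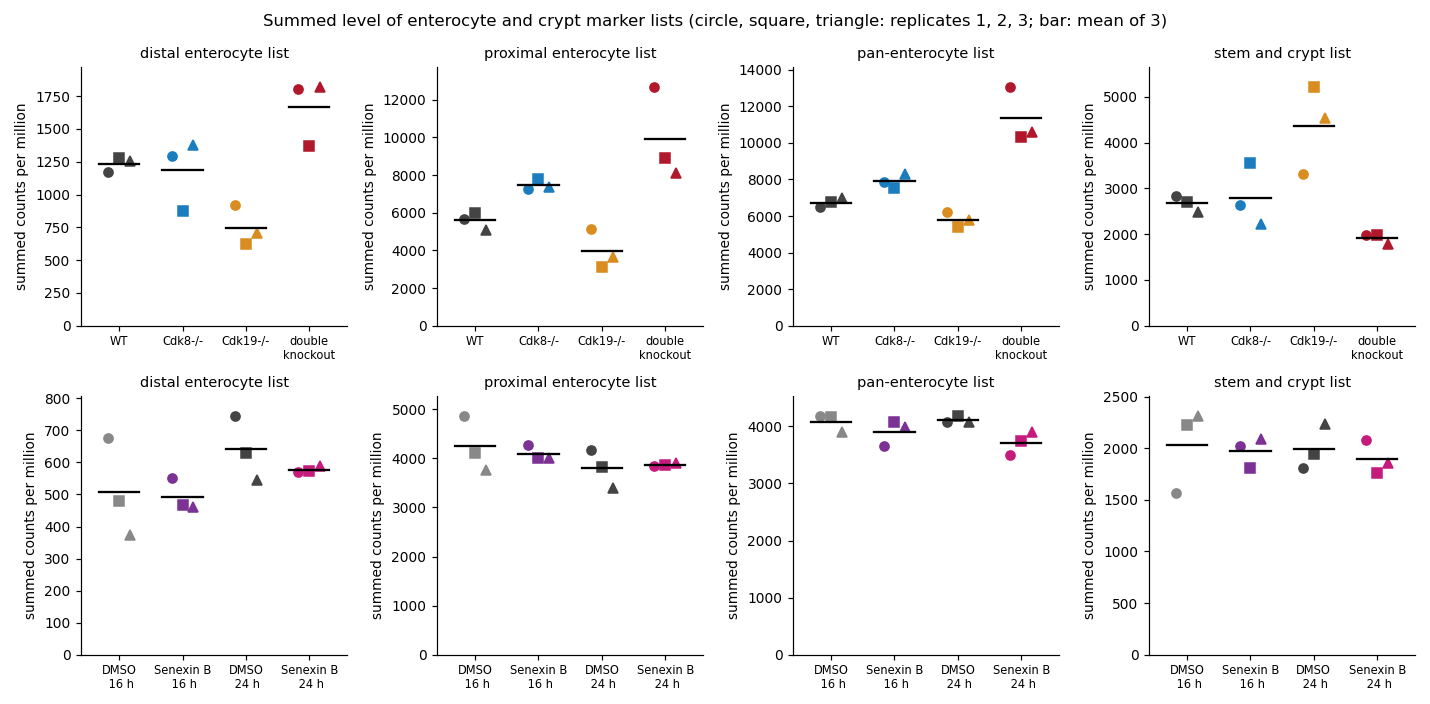
Summed CPM of 4 marker lists in each library, with the genotypes above and Senexin B and DMSO below; symbols are replicates 1 to 3, bars the mean of 3 libraries, and each panel has its own linear axis from 0. Among the genotypes, the 3 enterocyte lists have their highest mean in double knockout (1372 to 1822 CPM for the distal list) and their lowest in Cdk19-/- (622 to 918 CPM for the distal list). The Senexin B and DMSO groups overlap in the distal list at both times.

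Other genes of the pathway took no common direction, beside 17.3% of all genes called in double knockout and 5.15% in Cdk8-/-. Of 10 other bile acid transporters, 6 were tested in double knockout, and Abcb1a (0.80, edgeR adjusted p = 0.00198), a xenobiotic exporter, and Abcc4 (0.78, edgeR adjusted p = 0.00858), an exporter of conjugated anions, rose. Abcc4 also rose in Cdk8-/- (0.98, edgeR adjusted p = 0.00764). The hepatocyte importers and the canalicular pump, Slc10a1, Slco1a4, Slco1b2 and Abcb11, had at most 6 reads in any library. Of 17 tested receptors and regulators, 3 fell in double knockout, among them Vdr (-0.80, edgeR adjusted p = 0.00356), a nuclear receptor for vitamin D that also binds lithocholic acid, and Cdx2 (-0.35, edgeR adjusted p = 0.0158), a factor of intestinal identity. Vdr was the 1 called gene of this list in Cdk8-/-, where it also fell (-0.60, edgeR adjusted p = 0.0344). Nr1i2, the pregnane X receptor, rose by 0.35 (edgeR adjusted p = 0.0449) and was not called without both libraries at the WT level of Cdk19 (0.33, edgeR adjusted p = 0.0832). Gpbar1, the membrane receptor for bile acids, had at most 3 reads in any library. Of the 10 synthesis and conjugation genes, Cyp7a1, the rate-limiting enzyme in the liver, had 0 reads in all 24 libraries, and none of the 6 tested passed in double knockout.

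Senexin B was compared with DMSO to ask what inhibition of both kinases did within hours. At 16 h of Senexin B against DMSO, 3 of the 6 tested members rose, against 7.75% of the 15467 genes called (4.36% higher), and these were the hormone Fgf15, the receptor Nr1h4 and the importer Slc10a2. At 24 h Fgf15 alone was called, against 27.5% of genes (14.8% higher). Neither exporter subunit passed at either time. The median log2 fold change of the 6 was 0.22 at 16 h and -0.01 at 24 h, beside -0.01 and 0.00 for all genes.

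Fgf15 had 40.6, 15.6 and 26.9 normalised reads in DMSO and 56.5, 47.7 and 51.1 in Senexin B at 16 h. At 24 h it had 42.6, 36.1 and 41.9 in DMSO and 70.8, 88.2 and 79.2 in Senexin B. Every treated library was above every control library of its time, as for 24.8% of genes in either direction at 16 h and 45.6% at 24 h. The rise was 0.90 at 16 h (SE 0.255, edgeR adjusted p = 0.0441) and 0.98 at 24 h (SE 0.23, edgeR adjusted p = 0.0068), which are 1.87-fold and 1.97-fold. The 24 h call held in all 12 alternatives (0.90 to 1.06), whereas the 16 h call was lost on leaving out any library but DMSO replicate 1, with edgeR adjusted p-values up to 0.13 and a log2 fold change of 0.62 without DMSO replicate 2. It was also lost in a fit of these 2 groups alone (edgeR adjusted p = 0.121). These libraries keep strand, and Gm26793, the antisense gene that overlaps Fgf15, was also higher at 24 h (1.00, SE 0.333, edgeR adjusted p = 0.0375). Fgf15 had 1 to 8 reads per library on its opposite strand and 16 to 87 on its own.

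Nr1h4 had 1015, 904 and 830.5 normalised reads in DMSO and 1151, 1213 and 1181 in Senexin B at 16 h. All treated libraries were above the controls, and the rise of 0.37 (SE 0.0745, 1.29-fold, edgeR adjusted p = 0.00732) was called in all 12 alternatives. At 24 h it had 1049, 998 and 969 in DMSO and 1053, 1063 and 1022 in Senexin B, which overlapped, and the log2 fold change was 0.06 with a 95% interval from -0.10 to 0.22 (edgeR adjusted p = 0.601). The effect at 24 h minus that at 16 h was -0.31 (SE 0.105, edgeR adjusted p = 0.285), so the times were not shown to differ.

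Slc10a2 was close to the lower limit of counting in these libraries. It had 13, 9 and 10 reads in DMSO and 22, 30 and 16 in Senexin B at 16 h, which gave a log2 fold change of 1.11 (SE 0.321, edgeR adjusted p = 0.0485). This call is at the edge: it was lost in DESeq2 (adjusted p = 0.0683), in a fit of these 2 groups alone (edgeR adjusted p = 0.0901), and without DMSO replicate 2 or 3 or Senexin B replicate 1 or 2 (edgeR adjusted p = 0.105 to 0.195). At 24 h it had 17, 19 and 24 reads in DMSO and 18, 30 and 30 in Senexin B, and the log2 fold change was 0.45 (SE 0.281, 95% interval -0.15 to 1.06, edgeR adjusted p = 0.251).

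Slc51a had 697, 469 and 375 normalised reads in DMSO and 445, 403 and 343 in Senexin B at 16 h, and 676, 507 and 436 against 446, 407 and 436 at 24 h. The groups overlapped at both times. The log2 fold changes were -0.37 (95% interval -0.79 to 0.05, edgeR adjusted p = 0.29) and -0.33 (-0.75 to 0.09, edgeR adjusted p = 0.23), so a rise of more than 0.09 lies outside both intervals. Within same-numbered pairs Slc51a was lower with Senexin B in all 3 at 16 h, and with the replicate block its log2 fold changes were -0.35 (SE 0.119, edgeR adjusted p = 0.0625) and -0.30 (SE 0.118, edgeR adjusted p = 0.0536), which did not pass. Slc51b had 44.7, 41.0 and 41.8 in DMSO and 39.1, 43.6 and 52.1 in Senexin B at 16 h, and 29.1, 42.9 and 23.8 against 19.5, 37.5 and 33.5 at 24 h. Its log2 fold changes were 0.08 (-0.44 to 0.60) and -0.08 (-0.65 to 0.49). Nr0b2 had 142, 131 and 135 against 124, 152 and 111 at 16 h (-0.07, edgeR adjusted p = 0.832). At 24 h it had 144, 107 and 133 in DMSO and 84.1, 111 and 97.4 in Senexin B, with a log2 fold change of -0.40 (SE 0.158, edgeR adjusted p = 0.0754). Without DMSO replicate 2 at 24 h that value was -0.51 (edgeR adjusted p = 0.0403).

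**Figure D4:**
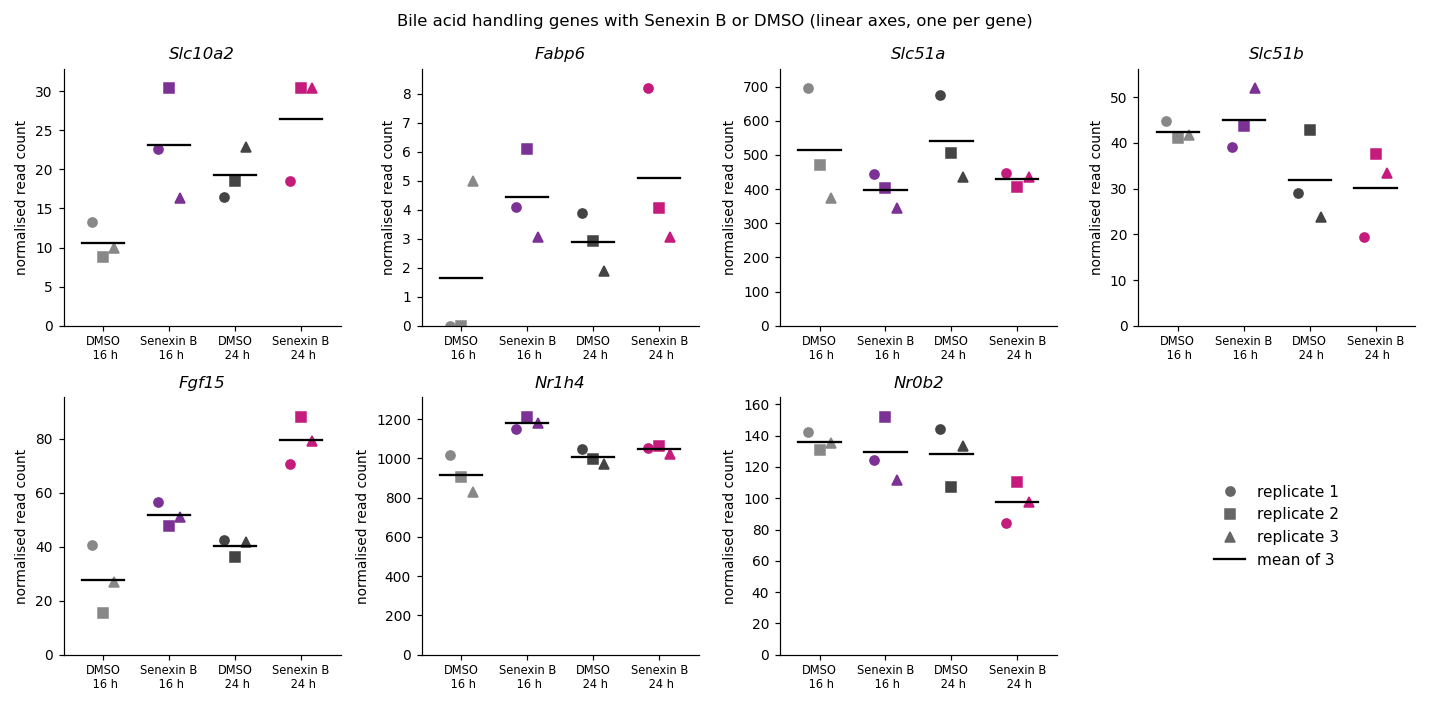
Normalised read counts of the 7 genes in each library of Senexin B and DMSO at 16 h and 24 h, one panel per gene with its own linear axis from 0; symbols are replicates 1 to 3 and bars the mean of 3 libraries. Fgf15 is above its DMSO libraries at both times (70.8 to 88.2 against 36.1 to 42.6 at 24 h), Nr1h4 at 16 h, and Slc51a and Slc51b overlap between treatments.

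Time in DMSO was itself compared, at 24 h against 16 h. No member was called, against 11.1% of genes, and Slc10a2 was the one whose groups did not overlap, at 0.85 (SE 0.328, edgeR adjusted p = 0.105), against 28.7% of genes without overlap. Fgf15 was 0.54 (SE 0.262, edgeR adjusted p = 0.193) and was called without DMSO replicate 1 at 16 h (0.92, edgeR adjusted p = 0.0273). For the difference between the effects of Senexin B at both times, 0% of genes were called with edgeR (1995 at an unadjusted p under 0.05) and 66 with DESeq2, and no member was called with either.

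The enterocyte lists did not move together with Senexin B. The counts of each list stand beside 7.75% of all genes called at 16 h (4.36% higher) and 27.5% at 24 h (14.8% higher). Of 5 enteroendocrine genes 3 rose at both times, with Gcg, the glucagon precursor of L cells, at 2.11 (edgeR adjusted p = 2.35e-05) and 2.57 (edgeR adjusted p = 6.66e-07), and of 4 Paneth genes 1 fell at 16 h and 3 at 24 h. Of 6 goblet genes 3 rose at 16 h, and at 24 h 4 rose, with Clca1 at 0.96 (edgeR adjusted p = 0.000199), and 1 fell, Fcgbp (-0.51, edgeR adjusted p = 0.00746). Of 4 tuft genes 3 rose at 24 h, with Avil at 0.90 (edgeR adjusted p = 0.000468), and none was called at 16 h. Of the 9 enterocyte genes without a regional bias 1 rose and 1 fell at 16 h, and at 24 h 1 rose, Anpep (0.86, edgeR adjusted p = 0.0136), and 3 fell, among them Sis, the sucrase-isomaltase (-0.92, edgeR adjusted p = 0.00124), and Krt20 (-0.82, edgeR adjusted p = 0.0152). Of 5 stem and crypt genes 1 fell at both times, Lgr5 (-0.47, edgeR adjusted p = 0.0285, and -0.97, edgeR adjusted p = 0.000112). The part of these lists in the rise of Fgf15 was not tested. Of the 12 tested distal genes 4 fell at 16 h and 4 at 24 h, when many more of all genes were called. At 24 h Ceacam20 was -1.99 (edgeR adjusted p = 7.39e-06), Dpep1, a dipeptidase, -1.68 (edgeR adjusted p = 0.00065) and Mep1a, a brush border protease, -1.06 (edgeR adjusted p = 5.07e-05). Of the 14 proximal genes 1 rose at 16 h, Lct at 2.30 (edgeR adjusted p = 0.00104), and 4 rose and 1 fell at 24 h, with Lct at 3.64 (edgeR adjusted p = 4.53e-06). Summed over the list, the distal genes stood at 372 to 676 CPM in DMSO and 461 to 552 in Senexin B at 16 h, and at 547 to 746 and 570.0 to 590.1 at 24 h. Among the other bile acid transporters Abcb1a rose at both times (0.95 at 16 h, edgeR adjusted p = 0.000203, and 0.45 at 24 h, edgeR adjusted p = 0.0102), and Slco2b1 fell at 24 h (-0.44, edgeR adjusted p = 0.026). Of 17 receptors and regulators, none was called at 16 h, and Nr5a2 (-0.31, edgeR adjusted p = 0.0123), a partner of Nr0b2 in the liver, and Nr3c1 (-0.31, edgeR adjusted p = 0.00925), the glucocorticoid receptor, fell at 24 h. Acox2, an enzyme of side-chain shortening, fell at 16 h (-0.31, edgeR adjusted p = 0.0276) and at 24 h (-0.43, edgeR adjusted p = 0.00157).

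Across the 12 genotype libraries, log2 CPM of the transport genes ran in parallel, as a description over libraries that share groups. Pearson's r was 0.959 between Slc51a and Slc51b, 0.919 between Slc10a2 and Slc51b and 0.868 between Slc10a2 and Slc51a. Nr1h4 correlated with these 3 at 0.646 to 0.685, Fgf15 at -0.431 to -0.374 and Nr0b2 at 0.141 to 0.232. Across the 12 libraries of Senexin B and DMSO, r was -0.153 between Slc51a and Slc51b, and the highest value of a pair was 0.821, between Slc10a2 and Fgf15, from counts of 9 to 30 and 16 to 87 reads.

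Of 12132 other genes with at least 50 normalised reads on average, those most like each member over the genotype libraries were Neu1 (r = 0.988), Cast (0.986) and Chmp2b (0.978) for Slc10a2, Acad11 (0.984), Tm6sf2 (0.982) and Fabp2 (0.982) for Slc51a, and Gm45236 (0.985), Dgkq (0.985) and Krt20 (0.983) for Slc51b. For Nr1h4 they were Flot1 (0.969), Ush1c (0.951) and Fbxo6 (0.95), for Fgf15 Vim (0.91), Gars (0.86) and Ier5l (0.841), and for Nr0b2 Upb1 (0.842), Dr1 (0.818) and Vsir (0.818). Fabp2 and Krt20 are on the enterocyte list. Over the libraries of Senexin B and DMSO the most alike of 12006 genes were Tlr2 (0.911) for Slc10a2, Klc4 (0.971) for Slc51a, Pard6b (0.976) for Fgf15, Dusp5 (0.941) for Nr1h4 and Vps45 (0.839) for Nr0b2. No gene stood among the 3 most alike of a member in both experiments.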

How the data were processed

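The authors sequenced single-end reads of 50 bases, aligned them to GRCm38.p6 with STAR (2.6.0a in the methods, 2.6.0c in the submitters' processing notes) and counted them with the annotation of Ensembl 93. Raw counts per gene were deposited without normalisation, unstranded and for each strand, and the second strand column was used. Submitters describe poly(A) libraries for the genotypes and ribosomal RNA-depleted libraries for Senexin B. Symbols and positions came from GENCODE vM21 (54079 genes), promoters from RefSeq.

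Each experiment was normalised by itself (TMM) and fitted as 1 model of its 12 libraries in edgeR 4.0.16 (R 4.3.3; quasi-likelihood F test) after filterByExpr (minimum count 10), which left 15602 and 15467 genes, and p-values were Benjamini-Hochberg adjusted over them. Standard errors are the log2 fold change over the square root of F. Normalised read counts are TMM-scaled to the mean depth of the experiment, and log2 CPM used a prior count of 2. Scripts were tested on simulated data. Alternatives were DESeq2 1.42.0 (the tool of the study), its size factors, no filter, unstranded counts, the replicate number as a block, only the groups compared, and leaving out each library. Leaving out both libraries at the WT level of Cdk19 was added after seeing the data. The members and lists were chosen with earlier results of these data known. Named were all 7 members, from each other list the 4 or fewer called genes with the largest fold change and at least 50 normalised counts, and the 3 genes most alike. A few genes that these rules name are not reported here.

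No 2 libraries of a group agreed within sampling noise. Same-numbered libraries of Senexin B and DMSO deviated together, with r from 0.101 to 0.303 at 16 h and from 0.137 to 0.377 at 24 h. The highest values, 0.303 and 0.377, were those of replicate 1. Senexin B replicate 2 and DMSO replicate 3, which are unlike numbers, had r = 0.154 at 16 h and 0.147 at 24 h. These exceed the lowest same-numbered values, so the numbers may pair the libraries there but are not shown to. This comes from the correlations alone.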

Additional observations from a re-analysis of the deposited data

Results flagged for a closer look

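In 3 members the double knockout and Cdk19-/- libraries lay on opposite sides of WT, each library of one group above and each library of the other below all WT libraries. The same held for 2.8% of the 15602 genes tested, and 1.72% had the opposite arrangement. EdgeR called none of the 3 in Cdk19-/- against WT. The direct contrast of double knockout with Cdk19-/-, which is the test of the difference between their effects, gave a log2 fold change of 3.04 for Slc10a2 (SE 0.402, edgeR adjusted p = 0.000384), 1.56 for Slc51a (SE 0.167, edgeR adjusted p = 0.000145) and 3.37 for Slc51b (SE 0.374, edgeR adjusted p = 0.000164), in a contrast that called 25.3% of genes (14.4% higher) and in which the groups of 38.9% did not overlap. The summed distal enterocyte list lay on the same sides of WT in these libraries. It was 622 to 918 CPM in Cdk19-/-, 1172 to 1275 in WT and 1372 to 1822 in double knockout. The enterocyte list without a regional bias did likewise, at 5384 to 6208, 6485 to 6976 and 10337 to 13074 CPM. In the direct contrast 10 of 12 distal, 12 of 14 proximal and 9 of 9 enterocyte genes without a regional bias were called higher. There 5 of 5 stem and crypt genes were called lower. The part of these lists in the difference was not tested. Groups of 3 libraries were not tested for single outlying libraries.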

How the results depend on the processing

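Of 814 values of single members under alternatives, 724 kept their direction and side of the threshold, 13 lost the call, 41 gained it and 36 changed sign, 30 of these with a library left out. The rises of Slc10a2, Slc51a and Slc51b in double knockout against WT and against Cdk19-/- were called in all 13 alternatives of each contrast, and none of the values that changed sign was called. The cause of the changes was not tested.

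For Cdk8-/- against WT, 804 genes became 1291 with DESeq2, 1269 with no filter and 1309 without both libraries at the WT level of Cdk19, and 0 members became 1 with DESeq2 and 1 with no filter. For Cdk19-/- against WT, 0 genes became 309, 479 and 666 in the same order and 15 with only these groups, and 0 members became 2 in each of the first 3. For double knockout against Cdk8-/-, 4 genes became 407 with DESeq2, 358 with no filter, 0 with only these groups and 22 without both libraries, and 0 members became 2 and 3 with DESeq2 and no filter. For the departure, 4 genes became 495, 566 and 728 with DESeq2, no filter and without both libraries, and 9 with unstranded counts, and 0 members became 3, 4 and 2. For Senexin B at 16 h, 1198 genes became 725 and 3 members became 1 with only these groups. For time in DMSO, 1719 genes became 385 with only these groups. For the difference between times, 0 genes became 66 with DESeq2 and 121 with no filter.

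With the replicate block, the count was 1 for double knockout against Cdk8-/-, 8 for the departure, 2293 for Senexin B at 16 h, 3281 for time in DMSO and 60 for the difference between times. The block left the calls of Slc10a2, Fgf15 and Nr1h4 at 16 h in place (edgeR adjusted p = 0.0342, 0.0225 and 0.00167). In the genotype libraries the numbers do not pair (same-number r from -0.193 to 0.219), and there Nr1h4 in double knockout against WT had an edgeR adjusted p of 0.0261 with the block and 0.0401 with only these groups. Between the times of DMSO, 1 same-numbered pair had r = -0.05, so these numbers were not taken as pairs.

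Leaving out 1 library at a time, the genes called ranged from 196 to 699 (Cdk8-/- against WT), 0 to 521 (Cdk19-/-), 1348 to 2452 (double knockout), 3 to 839 (double knockout against Cdk8-/-), 2399 to 4318 (against Cdk19-/-), 0 to 467 (departure), 657 to 1819 (Senexin B, 16 h), 2656 to 3805 (24 h), 434 to 2296 (time in DMSO) and 0 to 26 (difference between times). Members called ranged from 0 to 1 (Cdk8-/-), 0 to 2 (Cdk19-/-), 0 to 3 (double knockout against Cdk8-/-), 0 to 4 (departure), 1 to 3 (Senexin B, 16 h), 1 to 2 (24 h) and 0 to 1 (time in DMSO).

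Changes of sign with unstranded counts were Fgf15 in Cdk19-/- (-0.13), Nr0b2 in double knockout against Cdk8-/- (0.15) and in the departure (0.038), Slc51b at 16 h (-0.043) and Fgf15 in the difference between times (-0.091). Without both libraries at the WT level of Cdk19, Nr0b2 in double knockout against Cdk8-/- was 0.28. With 1 library left out, Fgf15 ranged from -0.21 to 1.49 in Cdk8-/-, from -0.19 to 0.59 in Cdk19-/- and from -0.30 to 0.36 in the difference between times. Nr0b2 ranged from -0.44 to 0.43 in Cdk19-/-, -0.093 to 0.53 in double knockout, -0.35 to 0.28 and -0.23 to 0.64 in double knockout against Cdk8-/- and Cdk19-/-, -0.47 to 0.40 in the departure, -0.20 to 0.023 at 16 h and -0.18 to 0.029 with time in DMSO. Slc51b ranged from -0.039 to 0.17 at 16 h, -0.26 to 0.19 at 24 h and -0.35 to 0.11 in the difference between times, and Slc51a from -0.12 to 0.35 with time in DMSO and -0.24 to 0.24 in the difference. Fabp6, with at most 8 reads in a library, was removed by the filter on low counts and was called in none of the 10 contrasts by edgeR without it (1 at an unadjusted p under 0.05).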
